A study of Mus musculus with 21 samples.

Results

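The Tmem45 family genes described here are the gene rows named Tmem45a and Tmem45b, 2 of the 24524 genes in the larger deposited table and of the 24512 in the smaller one. They were chosen by name, and their levels were read in all 21 libraries. RNA was sequenced from dorsal root ganglia, which house the sensory neurons that serve the body and limbs, of mice labelled Tmem45b-flox (flox) or Tmem45b-flox::Mrgprd-cre (knockout). All groups therefore carried the floxed Tmem45b gene, and the genotypes differed in a Cre transgene under Mrgprd, which encodes a receptor of one class of pain-sensing neurons. Untreated libraries fell by their names into an LDRG set (3 flox, 3 knockout) and a con/ko set (3 flox, 4 knockout), and a further set came from mice labelled CFA model (4 flox, 4 knockout). The labels leave CFA unexplained; the abbreviation commonly stands for complete Freund's adjuvant, an inflammatory agent. Names in the con/ko set also carry the code letters C or L and F or M, which the labels do not explain. C marks flox replicate 4 and knockout replicates 4, 5 and 6. L marks the other con/ko libraries, so these codes were uneven between the genotypes. The labels give neither the age of the mice, the floxed exons nor the zygosity of the Cre line.

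Tmem45a and Tmem45b encode small proteins that span the membrane several times, and Tmem45b is known for its expression in sensory neurons and its part in inflammatory pain in mice. Tmem45a is better known from skin keratinocytes and from cells kept at low oxygen. Because Cre was driven from Mrgprd, only cells that have used that promoter can lose Tmem45b, and whole-ganglion RNA also holds its transcripts from every other cell. In whole tissue, fewer cells of a type and less RNA per cell cannot be told apart. The comparisons below ask whether the second family gene changed where Tmem45b was deleted, and whether either gene changed with CFA.

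Both genes lie on minus strands in mouse build mm10 (GENCODE vM21 annotation). Tmem45a (ENSMUSG00000022754) occupies chromosome 16 from 56805161 to 56886166 and Tmem45b (ENSMUSG00000041737) chromosome 9 from 31426196 to 31464462. Each has 4 annotated transcripts and 6 exons in the transcript with the longest coding sequence. The exons of all transcripts together cover 3.129 kb in Tmem45a and 4.724 kb in Tmem45b, and the proteins have 273 and 278 residues. Aligned over 263 residues, 115 were identical (43.7%).

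The coding sequences are shown where they are most alike, because reads from so similar a stretch are the ones that could be assigned to the wrong family gene. The capitals mark the longest run of bases that both share, 20 bases long, at positions 565 to 584 of the Tmem45a coding sequence and 562 to 581 of that of Tmem45b, counted from the first base of the start codon.
Tmem45a: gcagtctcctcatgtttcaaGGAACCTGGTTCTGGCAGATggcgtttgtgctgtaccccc
Tmem45b: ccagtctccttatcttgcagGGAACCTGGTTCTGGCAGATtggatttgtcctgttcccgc
Over all annotated transcripts of both genes, 0 words of 25 bases were shared, so no stretch of that length fits both. A further family row, Tmem45a2 (ENSMUSG00000046748), lies on chromosome 16 from 57036967 to 57071372 and is 42.4% identical to Tmem45a. It was close to undetected, with 0 to 35 counts in a library (up to 0.498 CPM), and passed no comparison.

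Total counts ranged from 53.4 M to 72.5 M per library. Levels are given as CPM, counts per 1000000 counts of the TMM-scaled library total, and as CPM per kb of exon where genes are compared. The labels do not state whether each library is its own animal, and the p-values therefore reflect variation among libraries, some of which may be technical. The sets stood apart in other ways: red cell genes summed to 33.8 to 53.9 CPM in the LDRG libraries, 206 to 618 in the CFA libraries and 1590 to 4311 in the con/ko libraries. Xist, a transcript of female cells, ranged from 283 to 465 CPM over the 8 CFA libraries and did not exceed 0.33 CPM in the 6 LDRG libraries, while the con/ko set held both kinds. The pan-sensory neuron markers Avil and Prph were at 869 CPM or more and 1261 CPM or more in every library.

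Tmem45b was far the more abundant of the pair. Per kb of exon its group means ran from 14.1 to 34.1 CPM, and those of Tmem45a from 0.167 to 0.752 CPM. The ratio of the group means was 161 in LDRG flox ganglia, 51.3 in CFA flox and 45.4 in con/ko flox. Tmem45a thus made up between 0.607% (LDRG flox) and 2.57% (con/ko knockout) of the summed level of both genes per kb.

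The order of Tmem45b levels put the 3 knockout groups below the 3 flox groups: LDRG knockout (66.7 CPM), con/ko knockout (79.4), CFA knockout (86.0), CFA flox (99.1), LDRG flox (134) and con/ko flox (161). Of the 5 neighbouring pairs in that order, the ranges of 4 overlapped. The exception was LDRG flox against con/ko flox, with a two-sided exact permutation p of 0.1, the smallest that 3 against 3 allows. With CPM of total counts, without TMM scaling, the CFA knockout mean (83.3) fell just under that of con/ko knockout (83.5). The means of Tmem45a were ordered by set: LDRG knockout (0.522 CPM), LDRG flox (0.552), CFA knockout (1.09), CFA flox (1.28), con/ko knockout (1.39) and con/ko flox (2.35). Only its last pair did not overlap (exact permutation p = 0.0571, and 0.286 after Benjamini-Hochberg adjustment over 5 pairs).

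**Figure D1:**
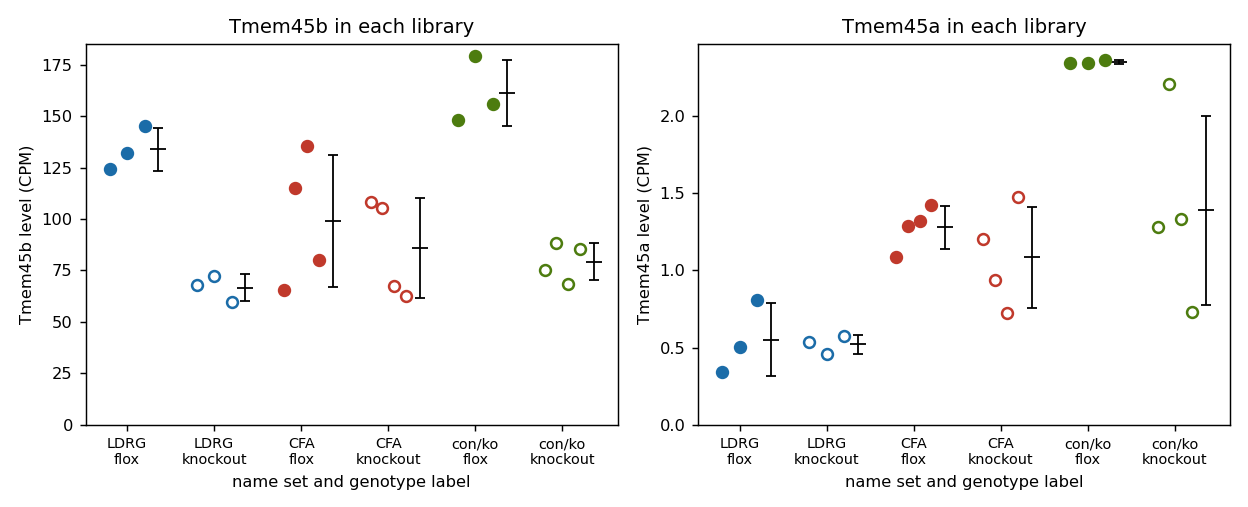
Levels in CPM of Tmem45b (left) and Tmem45a (right) in each of the 21 libraries, by name set (blue LDRG, red CFA, green con/ko) and genotype label (filled flox, open knockout), with the mean and SD of each group in black. Untreated knockout libraries lie below untreated flox libraries for Tmem45b, CFA libraries of both labels overlap, and the mean of Tmem45a is lowest in the LDRG groups.

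In untreated ganglia Tmem45b was lower in every knockout library than in every flox library of its set, and the knockout mean was 49.8% of the flox mean in the LDRG set and 49.2% in the con/ko set. The 3 LDRG flox libraries held 124, 132 and 145 CPM of Tmem45b and the 3 LDRG knockout libraries 68.0, 72.4 and 59.7 CPM. The 3 con/ko flox libraries held 148, 179 and 156 CPM and the 4 con/ko knockout libraries 75.4, 88.2, 68.6 and 85.3 CPM. The highest knockout library (88.2 CPM) lay well below the lowest flox library (124 CPM). Fitted over both sets, Tmem45b fell by 1.02 on the log2 scale (SE 0.07, 95% interval -1.17 to -0.86, adjusted p = 4.8e-05 by the quasi-likelihood test of edgeR, Benjamini-Hochberg adjusted). It was the single gene called among 16706 tested, 0.00599% of them. DESeq2 called 39 genes, and 1125 had an unadjusted p under 0.05 by edgeR.

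The size of the fall did not differ beyond its error between the sets. Tmem45b fell by 1.01 (SE 0.08, adjusted p = 0.028) in the LDRG set alone, where 0.0188% of genes were called, and by 1.02 (SE 0.10, adjusted p = 0.0122) in the con/ko set alone, where 0.243% were called. The difference between the sets was -0.02 (SE 0.15, 95% interval -0.34 to 0.30, unadjusted p = 0.885, edgeR), in a fit that called 0.00599% of genes. Leaving out any 1 of the 13 libraries kept the fall between 0.97 and 1.04.

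No rise of Tmem45a was seen where Tmem45b fell, and no difference passed. In the LDRG set the flox libraries held 0.342, 0.502 and 0.811 CPM of Tmem45a (24, 35 and 57 counts) and the knockout libraries 0.534, 0.456 and 0.575 CPM (37, 32 and 35 counts). All 3 knockout values lay inside the flox range. In the con/ko set the flox libraries held 2.34, 2.34 and 2.37 CPM (157, 158 and 164 counts) and the knockout libraries 1.28, 2.21, 1.34 and 0.728 CPM (72, 149, 91 and 49 counts). Here every knockout library lay below every flox library, with replicate 5 close to them and replicate 7 lowest.

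The fitted difference of Tmem45a over both untreated sets was -0.46 (SE 0.27, 95% interval -1.04 to 0.12, adjusted p = 0.803, edgeR). The upper end of that interval corresponds to a level 1.09 times that of flox. The LDRG set alone gave -0.08 (SE 0.38, 95% interval -0.98 to 0.82), whose upper end is 1.76 times. The con/ko set alone gave -0.76 (SE 0.35, unadjusted p = 0.0628, adjusted p = 0.775, edgeR), and an exact two-sided permutation test of its CPM values gave p = 0.0571, where 0.0286 is the smallest possible. The difference between the sets did not pass (-0.68, SE 0.53, unadjusted p = 0.22, edgeR). Counting error alone is wide at these depths: the exact 95% Poisson interval of 24 counts is 15.4 to 35.7, and of 57 counts 43.2 to 73.9.

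Set against the fall in counted Tmem45b reads, Tmem45a was low. Counts are per gene and the labels do not give the floxed exons, so intact Tmem45b transcripts were not measured apart. Per kb, Tmem45b was lower in knockout ganglia by 14.2 CPM in the LDRG set (28.3 in flox, 14.1 in knockout) and by 17.3 CPM in the con/ko set (34.1 and 16.8). Tmem45a in knockout ganglia amounted to 0.167 and 0.444 CPM per kb in all. The log2 ratio of Tmem45a to Tmem45b, in which library scaling cancels, was -8.01 in LDRG flox and -7.00 in LDRG knockout. That is a difference of 1.01 with no overlap of the groups and an exact permutation p of 0.1, the smallest possible with 3 against 3. In the con/ko set the ratio was -6.10 in flox and -5.94 in knockout, a difference of 0.16 (exact permutation p = 0.714). The LDRG difference in the ratio has the size of the fall of Tmem45b in the same set.

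The con/ko genotypes also differed in markers of skeletal muscle. These markers summed to 338 to 728 CPM in the con/ko flox libraries and to 3.10 to 12.1 CPM in the con/ko knockout libraries. Of them 5 of 6 fell in the con/ko set alone, where 0.243% of all genes were called (1 higher and 39 lower). Markers of myelinating Schwann cells, which wrap axons, summed to 10040 ± 2573 CPM (SD, n = 3) in flox and 6881 ± 1983 (SD, n = 4) in knockout, with 0 of 6 called. The 7 fibroblast markers summed to 2817 to 4025 CPM in flox and 2679 to 4821 in knockout. The part of these tissues in the Tmem45a values was not tested.

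No marker gene of the neurons that carry Cre passed the test beside Tmem45b. Of the 11 markers of Mrgprd-type neurons measured in both tables, 0 were called in either direction in untreated ganglia (median -0.15, against 0.00 over all genes). Tmem45b was the single gene called there (0.00599% of genes), so no list without it could hold a call. Mrgprd itself, the gene whose promoter drives Cre, differed by -0.05 over both sets (SE 0.14, adjusted p = 0.978, edgeR). Its direction was opposite in the sets. In the LDRG set alone it was higher in knockout by 0.19 (SE 0.04, unadjusted p = 0.0039, adjusted p = 0.990, edgeR). In the con/ko set alone it differed by -0.25 (SE 0.22, adjusted p = 0.908, edgeR). Relative to the geometric mean of the 11 markers, the log2 level of Tmem45b was 0.00 in LDRG flox and -0.95 in LDRG knockout (exact permutation p = 0.1, the smallest possible). In the con/ko set it was 0.19 and -0.60 (exact permutation p = 0.0286, the smallest possible, and 0.175 adjusted over 7 pairs of groups). With Mrgprd as the single marker, the con/ko difference was -0.76 with an exact permutation p of 0.0857, and con/ko groups overlapped.

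In the CFA set Tmem45b did not separate the labels. The libraries labelled flox held 65.5, 115, 136 and 80.0 CPM and the libraries labelled knockout 108, 105, 67.7 and 62.6 CPM. Flox replicate 1 lay below 3 of the 4 knockout libraries, and knockout replicates 1 and 2 lay above flox replicates 1 and 4. The knockout mean was 86.7% of the flox mean, and the fitted difference was -0.21 (SE 0.26, 95% interval -0.78 to 0.37, adjusted p = 0.963, edgeR). Of 16116 genes tested, 0% were called by edgeR, 799 had an unadjusted p under 0.05, and DESeq2 called 18. Directions drawn from these libraries rest on labels that Tmem45b, the deleted gene, did not bear out.

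Tmem45a did not pass the test between genotypes in CFA either. The libraries labelled flox held 1.09, 1.29, 1.32 and 1.42 CPM (75 to 97 counts) and the libraries labelled knockout 1.21, 0.937, 0.723 and 1.48 CPM (50 to 94 counts). The knockout range enclosed the flox range. The difference was -0.24 (SE 0.24, 95% interval -0.77 to 0.30, adjusted p = 0.955, edgeR). Ordered by Tmem45b, the 4 CFA libraries lowest in Tmem45b held 1.48, 1.09, 0.723 and 1.42 CPM of Tmem45a, and the 4 highest 0.937, 1.21, 1.29 and 1.32 CPM. The log2 ratio of Tmem45a to Tmem45b was -6.22 in flox and -6.31 in knockout (exact permutation p = 0.829).

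Relative to the Mrgprd-type markers, Tmem45b was at -0.63 in the libraries labelled CFA flox and -0.65 in those labelled CFA knockout (log2 scale, difference -0.03, exact permutation p = 0.8). The first group spanned -1.13 to -0.16 and the second -1.15 to -0.15. The geometric mean of those markers lay between 120 and 156 CPM in the 8 CFA libraries, a narrower spread than that of Tmem45b. Mrgprd was at 175 ± 24.2 CPM (SD, n = 4) in CFA flox and 147 ± 24.3 (SD, n = 4) in CFA knockout.

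**Figure D2:**
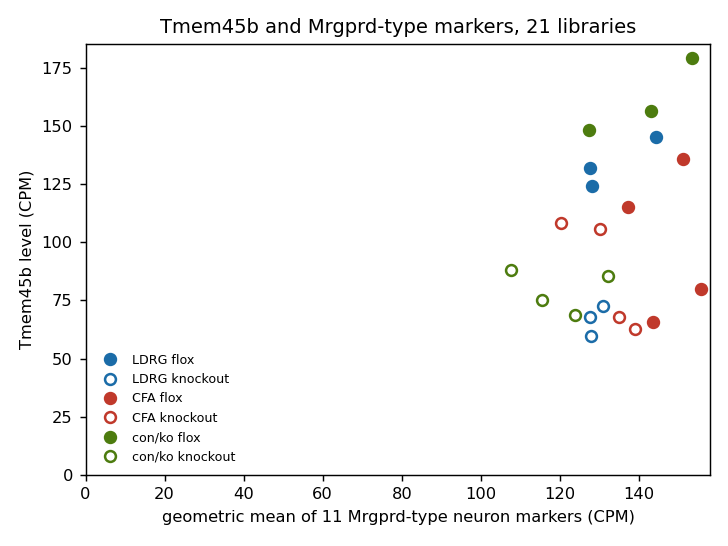
Tmem45b level against the geometric mean of 11 markers of Mrgprd-type neurons, both in CPM, in each of the 21 libraries (colours as names in the key, filled flox, open knockout). The markers span 108 to 156 CPM, and at similar marker levels the untreated flox libraries (124 CPM of Tmem45b or more) lie above the untreated knockout libraries (88.2 CPM or less), with CFA libraries of both labels between and among them.

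The response to CFA was read first against the LDRG libraries, which were deposited in the same table. These comparisons share the CFA libraries with the genotype comparison above. Xist was at 283 CPM or more in every CFA library and 0.33 CPM or less in every LDRG library. In these comparisons and in the interaction, CFA and sex by Xist therefore cannot be told apart. Tmem45a was higher in every CFA library than in every LDRG library of the same genotype label: all 4 CFA flox libraries (1.09 CPM or more) lay above all 3 LDRG flox libraries (0.811 CPM or less), and all 4 CFA knockout libraries (0.723 CPM or more) above all 3 LDRG knockout libraries (0.575 CPM or less). In flox the difference was 1.22 (SE 0.30, 95% interval 0.56 to 1.87, adjusted p = 0.0294, edgeR), a 2.32-fold rise. In that comparison 6.82% of 16605 genes were called. In knockout it was 1.05 (SE 0.30, adjusted p = 0.081, edgeR), past the threshold with DESeq2 (adjusted p = 0.0331), with 2.61% of genes called by edgeR.

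The call in flox rested on single libraries and on the choice of untreated set. It was lost when CFA flox replicate 2 (1.21), CFA flox replicate 4 (1.16), LDRG flox replicate 1 (0.96) or LDRG flox replicate 2 (1.15) was left out. Against the con/ko flox libraries Tmem45a was lower in CFA, by 0.88 on the log2 scale (SE 0.31, adjusted p = 0.0461, edgeR), in a comparison that called 29.8% of genes. All 4 CFA flox libraries lay below all 3 con/ko flox libraries (exact permutation p = 0.0286, the smallest possible). In knockout the value against con/ko was -0.36 (SE 0.29, adjusted p = 0.367, edgeR, 35.9% of genes called). Against both untreated sets together the flox difference was 0.17 (adjusted p = 0.724, edgeR). Against the con/ko libraries coded F alone, which like the CFA libraries were high in Xist, it was -0.87 (adjusted p = 0.0483, edgeR). The CFA flox values thus sat between those of the untreated sets. CFA and name set cannot be told apart, nor, against the LDRG set, CFA and sex by Xist.

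**Figure D3:**
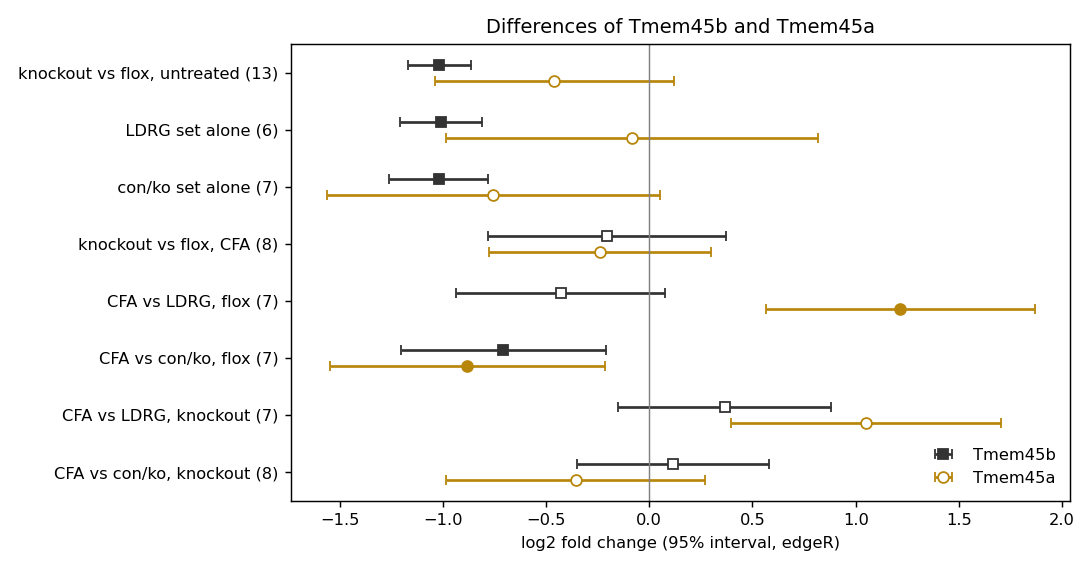
Log2 fold changes with 95% intervals of Tmem45b (squares) and Tmem45a (circles) from the edgeR fits, with the number of libraries compared in brackets and filled symbols at an adjusted p under 0.05. Tmem45b is at about -1 in both untreated sets, and Tmem45a changes sign between the LDRG set and the con/ko set as untreated reference (1.22 and -0.88 in flox).

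Tmem45b did not pass the test for CFA against the LDRG set in either genotype. The difference was -0.43 in flox (SE 0.24, 95% interval -0.94 to 0.08, adjusted p = 0.299, edgeR) and 0.37 in knockout (SE 0.24, 95% interval -0.15 to 0.88, adjusted p = 0.424, edgeR). Of the 4 CFA flox libraries (65.5 to 136 CPM), 1 lay inside the LDRG flox range of 124 to 145 CPM and 3 lay below it. Against the con/ko flox libraries Tmem45b was lower by 0.71 (SE 0.23, adjusted p = 0.0338, edgeR), in a comparison that called 29.8% of genes. Against both untreated sets together the flox difference was -0.56 and did not pass (adjusted p = 0.0502, edgeR). In knockout the value against con/ko was 0.12 (SE 0.22, adjusted p = 0.713, edgeR, 35.9% of genes called). CFA and name set cannot be told apart in these values of Tmem45b. The interaction of genotype and CFA was 0.79 for Tmem45b (SE 0.34, unadjusted p = 0.0338, adjusted p = 0.942, edgeR) and -0.16 for Tmem45a (SE 0.42, adjusted p = 0.990, edgeR). Of 16605 genes, 0% were called for the interaction, 840 had an unadjusted p under 0.05, and DESeq2 called 25.

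Markers of other cell types differed between the sets beside Tmem45a, in both directions. The fibroblast markers, genes of collagen-making connective tissue, summed to 1325 CPM in LDRG flox, 2294 in CFA flox and 3597 in con/ko flox, and to 1521, 2317 and 3526 in knockout. Against the LDRG set, where 6.82% of all genes were called in flox (626 higher and 507 lower) and 2.61% in knockout (282 higher and 151 lower), 4 of 7 rose in flox (median 0.80, against 0.00 over all genes), led by Apod (0.86, SE 0.09), Dcn (1.03, SE 0.14) and Pdgfra (1.09, SE 0.16). In knockout 6 of 7 rose (median 0.80). Red cell genes rose in both, 5 of 5 (medians 3.52 and 2.74). Perineurial markers, of the sheath around nerve bundles, gave 2 of 5 higher and 1 lower in flox, Cldn1 rising by 1.17 (SE 0.19). Macrophage markers gave 2 of 5 higher in flox (median 0.59) and 0 of 5 in knockout (median 0.49). Markers of satellite glia, which surround the neurons, gave 3 of 5 lower in flox (median -0.37), and those of peptidergic nociceptors, a further class of pain-sensing neurons, also 3 of 5 lower (median -0.48). In knockout satellite glia gave 1 of 5 higher (median -0.18) and peptidergic nociceptors 1 of 5 lower (median -0.22). The interaction called 0% of all genes, so a difference in these counts between genotypes is not read as a result.

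Relative to the fibroblast markers, the log2 level of Tmem45a was -7.59 in LDRG flox, -7.06 in CFA flox and -6.91 in con/ko flox. On this measure CFA flox and LDRG flox differed by 0.54 with overlapping groups (exact permutation p = 0.114, and 0.667 adjusted over 7 pairs). The smallest p possible there was 0.0286. In knockout the difference was 0.24 (exact permutation p = 0.457). Over the 7 pairs of groups compared on this measure, 0.114 was the lowest exact permutation p. Other lists that differed between the sets were not used in this way. The part of fibroblast, red cell or perineurial RNA in the Tmem45a values was not tested. Markers of keratinocytes, in which Tmem45a is best known, were low and uneven. Krt5 was at 0 in all 21 libraries and Krt14 at 0.157 CPM or less. Krt10 was at 1.52 to 4.78 CPM, Krt1 at 0.297 to 1.51 and Dsp at 0.0724 to 0.970. The 5 markers summed to 2.30 to 6.22 CPM.

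**Figure D4:**
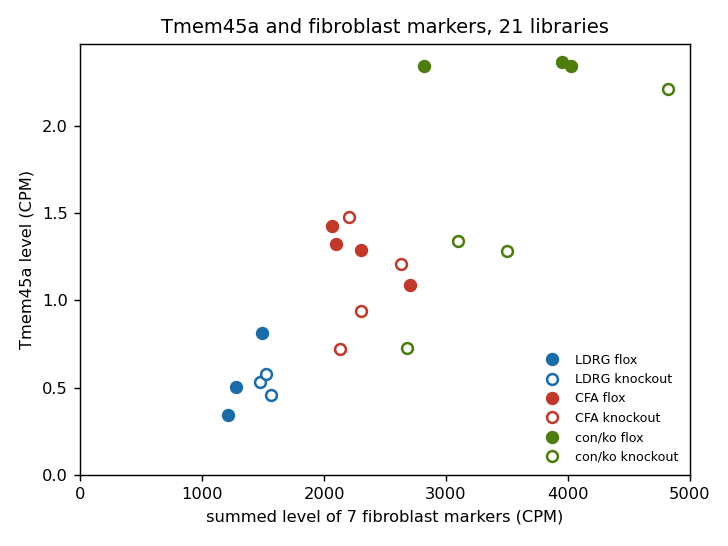
Tmem45a level against the summed level of 7 fibroblast markers, both in CPM, in each of the 21 libraries (colours as names in the key, filled flox, open knockout). LDRG libraries have the lowest marker sums and 0.811 CPM of Tmem45a or less, a level that 1 CFA knockout library (0.723) and 1 con/ko knockout library (0.728) lie below. The con/ko libraries spread widest, with flox at 2.34 to 2.37 CPM of Tmem45a and knockout at 0.728 to 2.21.

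No gene of the lists nearest to what is known of the family passed the genotype test, over both untreated sets or in CFA. Over all genes Tmem45b alone was called in untreated ganglia (0.00599%) and 0% in CFA, so these lists could hold no call. Of 10 genes of the response to low oxygen, in which Tmem45a is often listed, 0 were called in untreated ganglia (median 0.01) and 0 in CFA (median 0.05). Those with the smallest p were Ankrd37 (0.22, SE 0.16), Ndrg1 (0.08, SE 0.15) and Ldha (-0.03, SE 0.07) in untreated ganglia. Against the LDRG set in flox, Pdk1, a kinase that curbs mitochondrial pyruvate use, rose by 0.22 (SE 0.06), while Slc2a1, the glucose transporter GLUT1, fell by 0.34 (SE 0.08) and Vegfa, an angiogenic growth factor, by 0.25 (SE 0.06). The other 7 were not called, and in knockout 0 of 10 were called, where the shares over all genes were 6.82% and 2.61%.

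Genes of calcium handling in the endoplasmic reticulum gave 0 calls of 20 for genotype over both untreated sets (median -0.02). They gave 0 in CFA (median 0.03). Over all genes 0.00599% were called in untreated ganglia and 0% in CFA. The smallest p in untreated ganglia belonged to Sec61a1 of the protein channel (-0.08, SE 0.04). In the con/ko set alone Ryr1, the calcium release channel of skeletal muscle, fell by 3.33 (SE 0.30) beside the muscle markers above. Against the LDRG set in flox, Itpr2, an IP3 receptor, rose by 0.83 (SE 0.23) and Saraf, a brake on store-operated calcium entry, fell by 0.23 (SE 0.05). In knockout the chaperones Hspa5 (0.25, SE 0.04) and Canx (0.20, SE 0.04) rose, and in each genotype 18 of 20 were not called. Over all genes 6.82% were called in flox and 2.61% in knockout, and nothing particular to this list is read from its 2 calls in each.

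None of the genes beside the family in the genome passed the test between genotypes, for CFA against the LDRG set or for the interaction. Between genotypes 0.00599% of all genes were called in untreated ganglia and 0% in CFA, and 0% for the interaction. For CFA against the LDRG set the shares were 6.82% in flox and 2.61% in knockout. Around Tmem45b, Nfrkb ends 4863 bases away and differed by -0.09 in untreated knockout ganglia (SE 0.07, adjusted p = 0.879, edgeR). The other neighbours of Tmem45b were Prdm10, Barx2 and Tpi-rs4, and those of Tmem45a were Tfg and Abi3bp on one side and Tmem45a2 and Tomm70a on the other. Against the con/ko set, where 29.8% of genes were called in flox and 35.9% in knockout, some did pass. Tomm70a, a receptor for mitochondrial protein import, was higher in the CFA libraries by 0.51 in flox (SE 0.10, adjusted p = 0.0031, edgeR). In knockout it was higher by 0.65 (SE 0.10, adjusted p = 0.00029, edgeR). Against the LDRG set its differences were 0.05 in flox and 0.19 in knockout. Against the con/ko set in knockout, Tfg was also higher, by 0.24 (SE 0.06, adjusted p = 0.0060, edgeR). Barx2, a homeobox gene, was lower by 0.81 (SE 0.26, adjusted p = 0.0254, edgeR). CFA and name set cannot be told apart in these values.

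The genes whose levels over the 21 libraries were most like each member are given as a description, among 14233 genes with a mean of at least 1 CPM. The measure was Pearson's r of log2(CPM + 1) after the mean of each name set was subtracted. Genotype differences stay in it, as do differences in depth and tissue composition among the libraries of a set. For Tmem45a the highest were Polk (0.79), Coq5 (0.78), Elk4 (0.77), Mon1b (0.77) and Tmem62 (0.76), and the lowest L3mbtl4 (-0.81), Cdc25a (-0.75) and Racgap1 (-0.75). For Tmem45b they were Klk5 (0.83), Arpc1b (0.82), Lyar (0.79), Slc10a6 (0.79) and Zfp641 (0.77), and Htr7 (-0.80), Tmem196 (-0.77) and Tcea2 (-0.77). With the mean of each of the 6 groups subtracted, which removes genotype, Polk stayed at 0.80 while Klk5 was at 0.68, Arpc1b at 0.59 and Tcea2 at -0.36. Each of these 16 genes kept its sign.

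By the same measure the marker lists of several cell types had every member at an r above 0 with Tmem45a: skeletal muscle (6 of 6, median 0.46), myelinating Schwann cells (6 of 6, 0.41), C-low-threshold mechanoreceptors (4 of 4, 0.40), fibroblasts (7 of 7, 0.40), satellite glia (5 of 5, 0.35), perineurial cells (4 of 4, 0.33) and other Mrgpr neurons (8 of 8, 0.29), against a median of 0.00 over all genes. With group means subtracted the medians were -0.05, 0.30, 0.07, 0.56, 0.46, 0.49 and 0.03 in that order, against 0.03 over all genes. For Tmem45b the highest list medians were those of C-low-threshold mechanoreceptors (4 of 4 above 0, median 0.61), skeletal muscle (6 of 6, 0.52) and Mrgprd-type neurons (10 of 11, 0.36). With group means subtracted these were 0.11, -0.05 and -0.06.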

How the data were processed

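The authors deposited unnormalized counts of reads per gene, made from poly-A RNA read as paired bases, in 1 table of 14 libraries (CFA and LDRG) and another of 7 (con/ko). Reads were handled with fastp 0.23.2, BWA 2.2.1, SAMtools 1.14 and DESeq2 1.40.2 on mm10, per the submitters' processing notes. The sources used here do not name what assigned reads to genes. Counts of 4 were commoner than counts of 3 in the larger table (4068 against 2096) and in the smaller one (1779 against 1349). Poisson intervals may therefore be too narrow. The genotype field gives the Cre line for every sample, so groups were taken from titles.

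Over the 24381 genes of both tables, or all genes of the larger table where only its libraries entered, edgeR 4.0.16 in R 4.3.3 was run with filterByExpr (minimum count 10, total 15), TMM scaling, quasi-likelihood tests and Benjamini-Hochberg adjustment over all genes tested, calling genes at an adjusted p under 0.05. Untreated genotypes were fitted with name set as a term, CFA genotypes in the 8 CFA libraries, and CFA responses and the interaction in the 14 libraries of the larger table. Single values were compared with two-sided exact permutation tests (scipy 1.17.1), adjusted over the 7 pairs of groups compared. Intervals are at 95% and Poisson intervals cover counting error only. All replicate pairs differed by more than sampling noise (chi-square per degree of freedom 26.1 to 145 over 27 pairs). The fits were tested on simulated counts.

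Members and gene lists were chosen with earlier results of these data known. Named genes are the family rows, Mrgprd, the 2 nearest tested genes on each side (RefSeq gene table, same build), the 5 most and 3 least similar genes, and, in described lists, the 3 members with the smallest p. Hspa5, Canx, Ryr1, Itpr2, Saraf, Slc2a1, Vegfa, Pdk1 and Cldn1 are named as members called. Xist, Avil, Prph, Dsp and the keratins were named after their values were seen. Alternatives were RLE scaling, DESeq2 1.42.0, other filters, a replicate block, each untreated set alone or both, code letters as terms, other pseudocounts and markers, and leaving out each library. The con/ko libraries coded F as untreated were added after the data were seen.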

Additional observations from a re-analysis of the deposited data

Results flagged for a closer look

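The genotype difference of Tmem45b differed between the CFA and LDRG libraries by 0.79 on the log2 scale (SE 0.34, unadjusted p = 0.0338), being -1.01 in the LDRG set and -0.21 in CFA. It did not pass after adjustment (adjusted p = 0.942, edgeR). Every untreated library followed its label, and the CFA libraries overlapped. With the con/ko set as untreated the difference was 0.82 (unadjusted p = 0.0212, edgeR), and leaving out each of the 14 libraries in turn gave 0.64 to 0.99.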

How the results depend on the processing

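The fall of Tmem45b in untreated knockout ganglia kept its call under all 9 other settings (-1.04 to -0.95) and without each of 13 libraries (-1.04 to -0.97). Of 171 alternative values of the edgeR and DESeq2 differences of both genes, 155 kept their direction and their side of the threshold. The log2 ratio of the genes and the level relative to Mrgprd-type markers were not in that count, and their changes are also listed below. The cause of each change below was not tested. For Tmem45a, CFA against LDRG in flox gave 1.136 with a replicate block (adjusted p = 0.0728, edgeR), -0.88 against con/ko, 0.17 against both sets, -0.87 against the F-coded libraries, and 0.96 to 1.60 without single libraries. In knockout it gave 1.06 with DESeq2, -0.36 against con/ko and -0.69 against the F-coded libraries. The Tmem45a interaction gave 0.52 with con/ko, 0.17 with both sets, 0.18 with the F-coded libraries, and -0.549 to 0.0898 without single libraries. Tmem45b, CFA in flox, gave -0.71 against con/ko. The log2 ratio of the genes in CFA gave 0.0034 and 0.13 with 0.5 and 5 CPM added and -0.393 to 0.0765 without single libraries. In con/ko it gave 0.77 with 5 CPM added (exact permutation p = 0.0286) and -0.0482 to 0.47 without single libraries. Tmem45b relative to Mrgprd-type markers gave 0.0693 in CFA and -0.76 in con/ko with Mrgprd alone, and -0.20 to 0.14 and -0.89 to -0.70 without single libraries, designs that in con/ko cannot go below an exact permutation p of 0.0667.

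Replicate numbers did not pair the libraries (correlations of deviations -0.15 to 0.24), and the block changed no other call of these genes. Genes called went from 1 to 39 with DESeq2, 3 in LDRG alone, 40 in con/ko alone, 2 with code letters as terms and up to 44 without single libraries in untreated ganglia. They went from 0 to 18 with DESeq2 and up to 2 without single libraries in CFA, and from 0 to 25 with DESeq2, 1 with con/ko, 5 with the F-coded libraries and up to 1 without single libraries for the interaction. For CFA in flox, 1133 became 1928 with DESeq2, 738 with the block, 5000, 2252 and 3839 with con/ko, both sets and the F-coded libraries, and 462 to 1380 without single libraries. In knockout, 433 became 1292, 217, 6023, 3220 and 5314 in that order, and 61 to 424. Tmem45a had no value under a filter of a mean of 5 CPM, and its 24 to 164 counts limit what can be seen of it.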
